A study of Mus musculus with 10 samples.

Results

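Csf2 and 9 other genes for secreted cytokines and chemokines were followed in BMEL cells, a bipotential line from mouse embryonic liver. The genes were Csf1, Csf2, Csf3, Il6, Il11, Lif, Cxcl1, Cxcl2, Cxcl5 and Ccl2. Their 16 probe sets, of 45101 on the array, were those to which the platform annotation gives exactly 1 of these symbols, and the brightest probe set of a gene, averaged over all 10 arrays, was taken as its main one. The genes were chosen by the measured log2 change of Csf2 between the groups, the 4th highest of 12633 tested genes, and as a family of secreted signals around it. The values of Csf2 are therefore a description, with no test. The antisense group held 5 arrays from cells given a locked nucleic acid (LNA) oligonucleotide against miR-30a, and the scrambled group held 5 arrays from cells given a scrambled control oligonucleotide. Cells of both groups were transfected with Oligofectamine, and labelled RNA was made from 100 ng of total RNA. No array came from untransfected cells, and all 10 came from 1 line in culture. The labels do not say whether replicates were separate cultures, so the p-values speak only of the spread between samples, and that spread may be technical.

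The oligonucleotide is labelled only as directed at miR-30a, without its sequence or the arm it pairs with. Both mature arms from RefSeq (GRCm38.p6) are shown because they are what such an oligonucleotide could pair with, and the 5p arms of 2 relatives because they share a seed with miR-30a-5p. Capitals mark the seed, bases 2 to 8, through which a microRNA finds most of its targets.
mmu-miR-30a-5p: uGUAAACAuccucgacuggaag
mmu-miR-30c-5p: uGUAAACAuccuacacucucagc
mmu-miR-30e-5p: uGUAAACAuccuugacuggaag
mmu-miR-30a-3p: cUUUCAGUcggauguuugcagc
The 3 5p arms carry the same seed, GUAAACA, and the 3p arm carries another. The level of mature miR-30a was not analysed here.

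The genes encode signals that epithelial cells release, mostly under the control of the transcription factors NF-kB and AP-1, and many of their mRNAs are short-lived. Csf1, Csf2 and Csf3 encode the colony-stimulating factors, which drive the growth and activation of macrophages and granulocytes. Il6, Il11 and Lif encode cytokines that signal through the shared receptor chain gp130 and STAT3, a pathway that acts in liver development and regeneration. Cxcl1, Cxcl2 and Cxcl5 encode chemokines that attract neutrophils through CXCR2, and Ccl2 encodes one that attracts monocytes through CCR2.

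Values are log2 expression as deposited. Array medians lay between 5.21 and 5.24, and the median change over all tested genes was 0.0084. A gene was tested if the mean of its main probe set reached 4.559, the level under which 40% of probe sets fall. Csf1, Csf2, Csf3, Lif, Cxcl1, Cxcl5 and Ccl2 passed this filter, with both group means above it, while Il6, Il11 and Cxcl2 did not. Csf3, just inside, had a mean of 4.71 over all arrays, and Il11, just outside, had 4.46. Changes are differences of mean log2 values, the antisense group minus the scrambled group, tested with limma over the 12633 genes, with p-values adjusted by Benjamini-Hochberg and a threshold of 0.05.

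Of the 6 tested genes other than Csf2, 5 had a change above 0 and the median was 0.18, while 55.1% of all tested genes had a change above 0. With Csf2, which the choice of genes fixed, the count was 6 of 7 and the median 0.23. Lif rose, by 0.23, and Csf2, which had been chosen for its change, was 0.65 higher in antisense arrays. The remaining 5 did not pass, with Cxcl1 at 0.36, Ccl2 at 0.32, Csf3 at 0.12, Csf1 at 0.10 and Cxcl5 at -0.03. Over all tested genes 1.53% passed in either direction and 1.16% were higher with the antisense oligonucleotide. In their main probe sets, Csf2, Csf3, Lif and Cxcl1 had every antisense array above every scrambled array. That is 4 of the 7, or 3 of 6 with Csf2 set aside, and none had the opposite. Groups without overlap were found for 3.92% of all tested genes, 2.74% with the antisense arrays higher and 1.18% with them lower. The cytokine and chemokine genes were chosen with earlier results of these data known, so their counts beside these shares are a description. Bulk arrays cannot tell a change in RNA per cell from a change in the share of cells that make it.

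**Figure D1:**
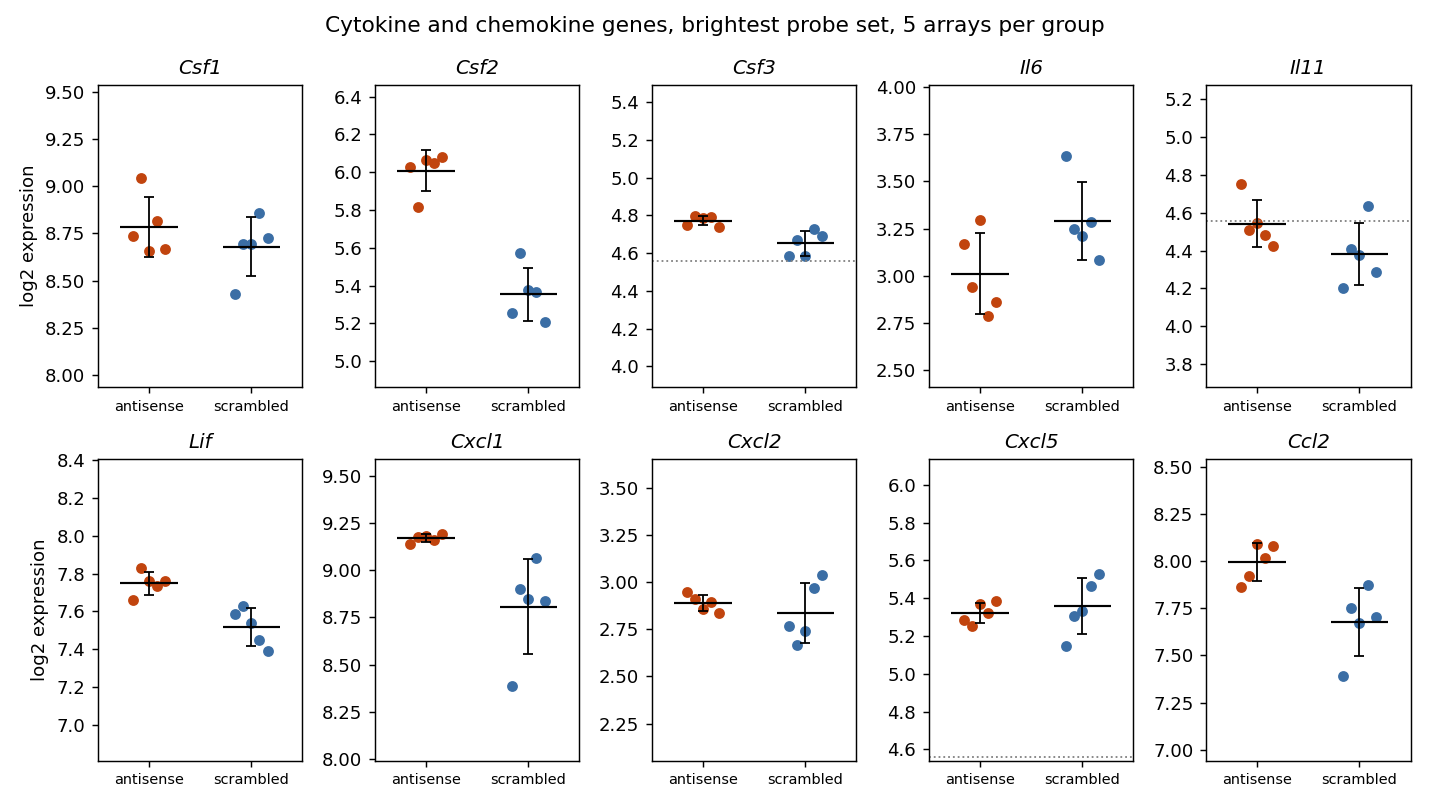
Log2 expression (vertical axes, each spanning the same range of 1.6) of the main probe set of the 10 genes, with the 5 antisense arrays at the left and the 5 scrambled arrays at the right of each panel. Dots are arrays in replicate order, bars are the mean and SD, and the dotted line, where it falls in a panel, is the filter level of 4.559; Csf2 has the widest gap between groups, while Csf1, Cxcl5, Ccl2 and the dim Il6, Il11 and Cxcl2 overlap.

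Csf2 encodes GM-CSF, a growth factor for macrophages and granulocytes. Its 1 probe set (1427429_at) read 6.03, 5.82, 6.07, 6.05 and 6.08 in antisense arrays 1 to 5, against 5.25, 5.57, 5.37, 5.37 and 5.21 in scrambled arrays 1 to 5. The lowest antisense array, replicate 2, stood above the highest scrambled array, which was also replicate 2. Means were 6.01 ± 0.11 in antisense and 5.35 ± 0.14 in scrambled arrays (SD, n = 5 each), a 1.57-fold difference (log2 change 0.65, SE 0.070). Between arrays of the same number the difference was 0.78, 0.24, 0.69, 0.68 and 0.87, so the pair with number 2 differed least. With 1 array left out the change stayed between 0.62 and 0.71.

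Of the 10 genes, 7 matched a promoter window in RefSeq (GRCm38.p6), running from 250 bases before the annotated start to 50 after it. Csf3, Cxcl5 and Ccl2 had no entry. The windows of Csf2, Lif, Cxcl1 and Cxcl2 are shown, since these are the gene the set was built on, the gene that passed the test, and a neighbouring chemokine pair whose probe sets read differently. Both strands were searched for the NF-kB motif, for the AP-1 motif TGANTCA and for TATAAA, and capitals mark the matches.
Csf2 (chr11:54249850-54250149, minus strand): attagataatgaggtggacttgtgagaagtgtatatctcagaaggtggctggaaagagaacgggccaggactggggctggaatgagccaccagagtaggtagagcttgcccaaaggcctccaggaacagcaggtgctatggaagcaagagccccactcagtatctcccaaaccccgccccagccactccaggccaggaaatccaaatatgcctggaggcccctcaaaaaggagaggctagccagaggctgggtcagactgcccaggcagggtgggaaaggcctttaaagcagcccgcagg
Lif (chr11:4257318-4257617, plus strand): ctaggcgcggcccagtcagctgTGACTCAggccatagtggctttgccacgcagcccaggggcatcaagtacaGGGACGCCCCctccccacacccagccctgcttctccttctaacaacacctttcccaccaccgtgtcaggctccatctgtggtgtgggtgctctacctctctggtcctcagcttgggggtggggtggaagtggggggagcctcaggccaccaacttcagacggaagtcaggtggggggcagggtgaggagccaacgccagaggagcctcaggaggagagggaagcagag
Cxcl1 (chr5:90890995-90891294, plus strand): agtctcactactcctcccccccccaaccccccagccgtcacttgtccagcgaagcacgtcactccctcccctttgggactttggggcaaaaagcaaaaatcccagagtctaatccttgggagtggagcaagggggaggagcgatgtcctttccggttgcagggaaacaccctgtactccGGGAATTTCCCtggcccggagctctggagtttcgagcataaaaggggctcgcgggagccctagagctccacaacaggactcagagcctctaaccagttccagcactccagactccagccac
Cxcl2 (chr5:90903649-90903948, plus strand): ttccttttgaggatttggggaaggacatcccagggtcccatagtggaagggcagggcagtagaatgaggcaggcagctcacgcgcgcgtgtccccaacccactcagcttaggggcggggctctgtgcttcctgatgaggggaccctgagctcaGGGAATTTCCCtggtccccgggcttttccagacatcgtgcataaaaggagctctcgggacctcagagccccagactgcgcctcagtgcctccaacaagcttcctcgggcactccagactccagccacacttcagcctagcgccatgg
The NF-kB motif was found in the windows of 5 of the 7 genes (Csf1, Il6, Lif, Cxcl1 and Cxcl2), and 8.46% of all 32851 windows hold it. The AP-1 motif was found for 3 (Il6, Il11 and Lif), and 7.81% of all windows hold it. TATAAA was found in none of them, and 13.6% of all windows hold it. Cxcl1 and Cxcl2 hold the same 11 letters, GGGAATTTCCC, whose 2 overlapping matches begin 71 and 70 bases before the start in Cxcl1 and 97 and 96 bases before it in Cxcl2. In Lif the AP-1 match begins 228 and the NF-kB match 178 bases before the start. A match is a stretch of letters and not a bound site. The Csf2 window held no match to any of the motifs, but it covers only the bases around 1 annotated start. Sequence outside it, or around another start, was not searched, so the promoter of Csf2 cannot be said to lack these motifs.

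Csf3 encodes G-CSF, the growth factor of neutrophil precursors. Its probe set read 4.75, 4.80, 4.79, 4.79 and 4.74 in antisense arrays, against 4.58, 4.67, 4.59, 4.73 and 4.69 in scrambled arrays. The groups were apart by a narrow margin, and every value lay close above the filter level. The change was 0.12 (SE 0.040, 95% interval 0.035 to 0.21) and did not pass (limma adjusted p = 0.190).

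Csf1 encodes M-CSF, the growth and survival factor of macrophages, and is represented by 4 probe sets. The main one (1460220_a_at) read 8.74, 9.04, 8.66, 8.81 and 8.67 in antisense arrays, against 8.43, 8.69, 8.69, 8.86 and 8.73 in scrambled arrays. The groups overlapped, and the antisense array was the higher one in 2 of 5 same-numbered pairs. The change of 0.10 (95% interval -0.079 to 0.29) did not pass (limma adjusted p = 0.687), and was 0.039 without antisense replicate 2 and 0.041 without scrambled replicate 1. The other 3 probe sets had changes of 0.23 (1448914_a_at), 0.03 (1425155_x_at) and -0.07 (1425154_a_at), so their signs were mixed.

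Lif encodes leukaemia inhibitory factor, a gp130 cytokine best known for holding mouse embryonic stem cells in the pluripotent state. Its main probe set (1421207_at) read 7.66, 7.83, 7.76, 7.73 and 7.76 in antisense arrays, against 7.58, 7.63, 7.54, 7.45 and 7.39 in scrambled arrays. All antisense arrays lay above all scrambled arrays. Means were 7.75 ± 0.061 in antisense and 7.52 ± 0.099 in scrambled arrays (SD, n = 5 each), a 1.17-fold rise (log2 change 0.23, SE 0.052, limma adjusted p = 0.0457). The call is close to the threshold: leaving out 1 array at a time gave adjusted p-values between 0.0376 and 0.112, and Lif passed in 2 of these 10 fits, those without antisense replicate 1 and without scrambled replicate 2. The second Lif probe set (1450160_at), below the filter level, had a change of -0.10, and the mean of both had a change of 0.07 that did not pass (adjusted p = 0.481).

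Il6 encodes interleukin-6, the main inducer of the hepatic acute phase response, and Il11 a related gp130 cytokine. Neither was tested. Il6 read 3.17, 2.94, 3.30, 2.79 and 2.86 in antisense arrays, against 3.63, 3.25, 3.21, 3.28 and 3.08 in scrambled arrays, values in the dimmest part of the array's range. Il11 read 4.75, 4.51, 4.54, 4.48 and 4.42 in antisense arrays, against 4.20, 4.41, 4.38, 4.64 and 4.29 in scrambled arrays. Both genes overlapped between groups. Without a filter, over 18193 genes, the changes were -0.28 for Il6 and 0.16 for Il11, neither of which passed (limma adjusted p = 0.347 and 0.494).

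**Figure D2:**
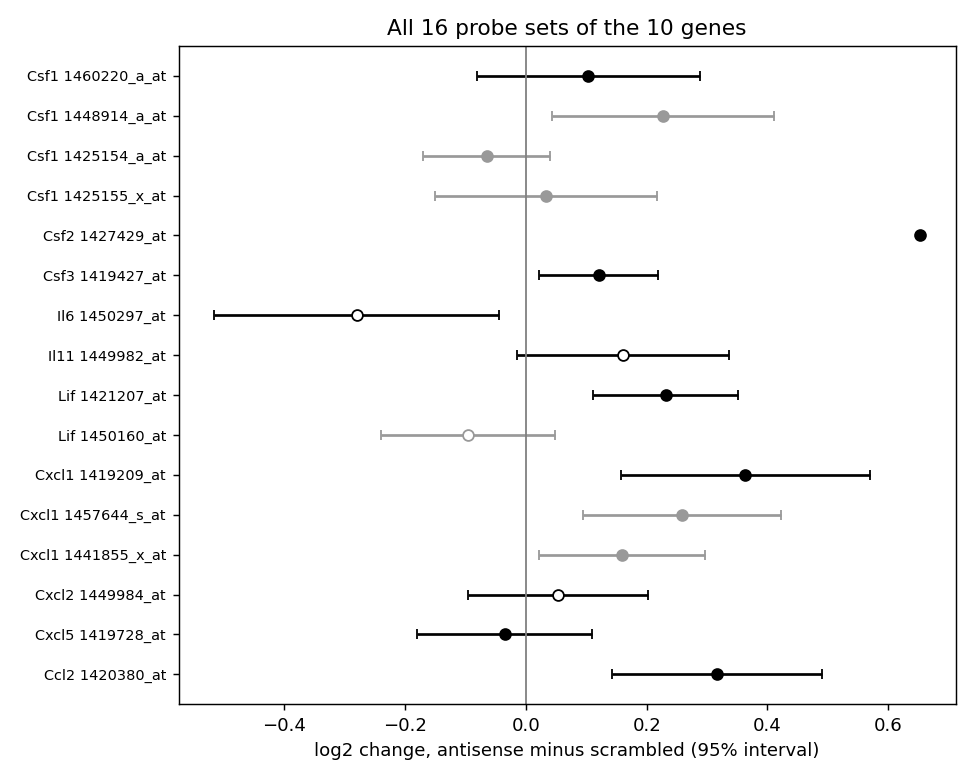
Change of each of the 16 probe sets (horizontal axis, antisense minus scrambled, log2 scale) from the fit over all probe sets without a filter, with its 95% interval except for Csf2, which was chosen for its change. Black marks the main probe set of a gene and grey the others, and open circles lie below the filter level; Csf2 stands at 0.65, the 3 Cxcl1 probe sets lie between 0.16 and 0.36, and the 2 Lif probe sets differ in sign.

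Cxcl1 encodes a chemokine that attracts neutrophils, and its main probe set (1419209_at) read 9.14, 9.18, 9.18, 9.16 and 9.19 in antisense arrays, against 8.39, 8.90, 8.85, 9.07 and 8.83 in scrambled arrays. The antisense arrays lay close together and above every scrambled array, while the scrambled arrays were scattered, with replicate 1 far lowest and replicate 4 highest. Means were 9.17 ± 0.020 in antisense and 8.81 ± 0.25 in scrambled arrays (SD, n = 5 each). The change of 0.36 (SE 0.095, 95% interval 0.16 to 0.57) did not pass (limma adjusted p = 0.0829). Without scrambled replicate 1 it was smaller, 0.26, and passed (adjusted p = 0.0339). It also passed without scrambled replicate 4 (0.43, adjusted p = 0.0446), and the 10 fits that each lacked 1 array gave adjusted p-values between 0.0339 and 0.176.

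The other 2 Cxcl1 probe sets went the same way, with changes of 0.26 (1457644_s_at) and 0.16 (1441855_x_at), but in both the groups overlapped. In 1457644_s_at scrambled replicate 4 (9.05) lay above antisense replicate 3 (9.01). In 1441855_x_at scrambled replicate 4 (8.93) lay above every antisense array. The SDs of these 2 probe sets were 0.025 and 0.055 in antisense arrays, against 0.19 and 0.14 in scrambled arrays. The narrower spread in antisense arrays thus appeared in each of the 3 probe sets. For the main probe set the scrambled SD was 12.7 times the antisense SD, against a median ratio of 1.03 over the 12633 tested genes, and 1 of those genes had a higher ratio. Without scrambled replicate 1 the ratio was 5.38, against a median of 0.943, and 37 genes had a higher one. This ratio was singled out after the values were seen and is given without a test.

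**Figure D3:**
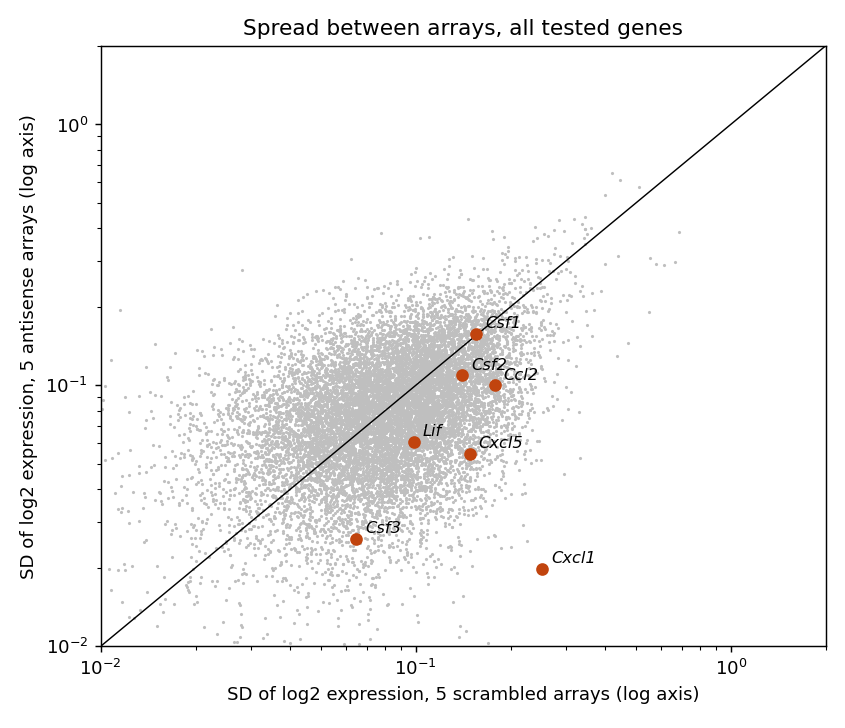
SD of log2 expression over the 5 antisense arrays (vertical, log axis) against that over the 5 scrambled arrays (horizontal, log axis) for 12633 tested genes (grey), with the 7 tested cytokine and chemokine genes in orange and the line of equal spread in black. Cxcl1 lies far below the line, at 0.020 in antisense and 0.25 in scrambled arrays, while Csf1 lies on it.

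Cxcl2 and Cxcl5 encode further CXCR2 ligands. Cxcl5 read 5.28, 5.25, 5.37, 5.32 and 5.38 in antisense arrays, against 5.15, 5.31, 5.33, 5.47 and 5.53 in scrambled arrays. The antisense values fell inside the scrambled range, and the change of -0.03 (95% interval -0.17 to 0.10) did not pass (limma adjusted p = 0.892). Cxcl2 read 2.95, 2.91, 2.86, 2.90 and 2.84 in antisense arrays, against 2.77, 2.67, 2.74, 2.97 and 3.04 in scrambled arrays, near the bottom of the table, where 7.27% of probe sets lay below it. Its change without a filter was 0.05 (adjusted p = 0.850). The difference between Cxcl1 and these 2 genes was not itself tested.

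Ccl2 encodes MCP-1, the main attractant of monocytes. It read 7.86, 7.92, 8.09, 8.02 and 8.08 in antisense arrays, against 7.39, 7.75, 7.67, 7.87 and 7.70 in scrambled arrays. The groups met at their edges, with scrambled replicate 4 just above antisense replicate 1, and scrambled replicate 1 was again lowest. Means were 7.99 ± 0.10 in antisense and 7.68 ± 0.18 in scrambled arrays (SD, n = 5 each), a change of 0.32 (SE 0.079, 95% interval 0.15 to 0.49) that did not pass (limma adjusted p = 0.0687). The antisense array was the higher one in all 5 same-numbered pairs, and with the replicate number as a block Ccl2 rose (adjusted p = 0.0249), in a fit that called 3.05% of all genes. Without scrambled replicate 4 it passed also with no block (0.37, adjusted p = 0.0457).

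Scrambled replicate 1 had the lowest scrambled value for Csf1, Csf3, Cxcl1, Cxcl5 and Ccl2, 5 of the 7 tested genes, and was the lowest scrambled array for 25.3% of all tested genes. Without it Csf2 had a change of 0.63, Lif one of 0.25 (adjusted p = 0.0588), and Ccl2 one of 0.25 (adjusted p = 0.0885).

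Within groups, the genes whose deviations from their group mean ran closest to those of Csf2 over the 10 arrays were Nfs1 (Pearson r 0.95), Katna1 (0.94), Crnde (0.93), Nfyb (0.93) and Emid1 (0.92), the highest of 12632 genes. The other tested cytokine and chemokine genes ranged from -0.27 for Csf1 to 0.46 for Ccl2, which ranked 1348th. Among themselves, the chemokine genes Cxcl1 and Ccl2 had r 0.89, Cxcl5 and Ccl2 0.78, and Cxcl1 and Cxcl5 0.73, the highest of all member pairs. Cxcl1 was nearly as close to Csf3 (0.69) and Csf1 (0.68), which are not chemokine genes. Lif ran against Cxcl5 (-0.69), Cxcl1 (-0.30) and Ccl2 (-0.21). Scrambled replicate 1, lowest for Cxcl1, Cxcl5, Ccl2, Csf1 and Csf3 alike, enters all of the high values. These coefficients share the same 10 arrays and carry no p.

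Beyond the 10 genes, 2 lists of other chemokines and cytokines were examined. Of 33 other chemokines 19 were tested and 1 rose, where 1.16% of all tested genes did. It was Ccl9, a CC chemokine of mice that acts through CCR1. Ccl9 read 10.48, 10.52, 10.42, 10.63 and 10.52 in antisense arrays, against 10.19, 10.30, 10.27, 10.29 and 10.22 in scrambled arrays. All antisense arrays were above all scrambled arrays, and the change was 0.26 (SE 0.044, limma adjusted p = 0.0124). It passed under all 17 alternative settings of the fit over genes, with adjusted p up to 0.0341, and a second Ccl9 probe set had a change of 0.30. In the fit over all 45037 probe sets without a filter, neither Ccl9 probe set passed (limma adjusted p = 0.0522 and 0.173). The median over the 19 chemokines was -0.03, and those with the smallest p after Ccl9 were the B-cell chemokine gene Cxcl13 (-0.17), the interferon-inducible Cxcl10 (-0.15) and the mucosal chemokine gene Ccl28 (-0.16), none of which passed.

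Of 40 other cytokines 17 were tested and none passed with limma, while 5 had an unadjusted p under 0.05, against 12.9% of all tested genes. Their median change was -0.04, and Il23a (-0.21), Il34 (0.23), which encodes a second ligand of the Csf1 receptor, and Tnfsf10 (-0.22), which encodes TRAIL, had the smallest p. Il23a, among the 5 with an unadjusted p under 0.05, averaged 4.48 in antisense arrays, under the filter level. It passed the filter only through its scrambled mean of 4.69, so its low p is not read as a result. Among receptors of the 10 cytokines 7 of 15 were tested and none passed, with a median of 0.01, a lowest adjusted p of 0.372 and 1 unadjusted p under 0.05 (Ackr2, a chemokine scavenger gene, at -0.15). Ackr2 averaged 4.552 in antisense arrays, just under the filter level, and passed the filter only through its scrambled mean of 4.71. Csf2ra, the GM-CSF receptor alpha chain gene, was at -0.10, the Ccl2 receptor gene Ccr2 at 0.07, and the shared beta chain gene Csf2rb lay below the filter.

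None of the tested genes in 3 lists of signal carriers and restraints passed with limma, where 1.53% of all tested genes did. In lists this short, no call is close to that share. The unadjusted p was under 0.05 for 0 JAK-STAT genes, 1 NF-kB gene and 1 mRNA decay gene, against 12.9% of all tested genes. The 13 tested JAK-STAT transducers had changes between -0.06 and 0.06, with Pias3 at 0.06, Stat2 at -0.06, Pias1 at -0.04 and Stat3 at -0.04. The 14 NF-kB subunits and feedback inhibitors had a median of 0.0016, with Tnfaip3, the gene of the NF-kB inhibitor A20, at 0.15 (adjusted p = 0.241), Rela at 0.08 and Nfkbia at -0.10. Of 12 regulators of cytokine mRNA decay Zfp36, the gene of tristetraprolin, which binds AU-rich elements of cytokine mRNAs, was at 0.15 (adjusted p = 0.166), Zc3h12a, the gene of Regnase-1, at 0.10 and Hnrnpd at -0.06. Of 12 genes chosen around Csf2 and Il3 on chromosome 11, 5 were tested and none passed (0 with an unadjusted p under 0.05), with changes from -0.07 for Irf1 to 0.04 for Kif3a, and P4ha2 at -0.05. Il3, beside Csf2, lay below the filter at 3.42, with a difference of 0.05 between group means.

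**Figure D4:**
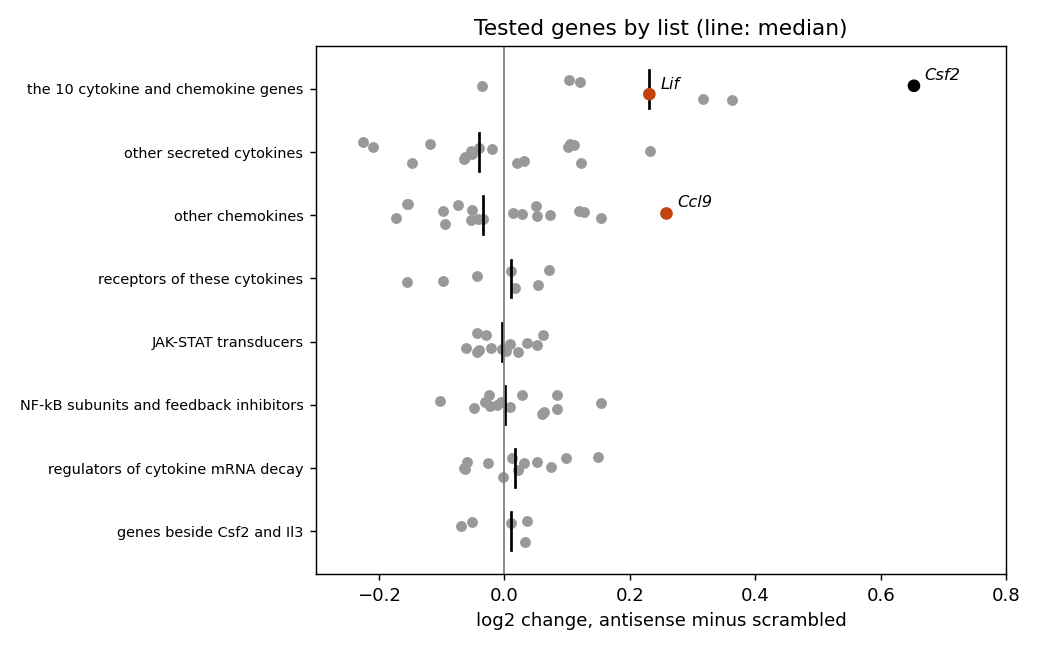
Log2 change (antisense minus scrambled, horizontal axis) of every tested gene of 8 lists, with a black line at each list's median. Orange marks genes with limma adjusted p under 0.05 and black marks Csf2, which was chosen for its change; Lif and Ccl9 are the genes in orange, and the signalling lists lie around 0.

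Markers of the labelled origin were unevenly represented. The keratin genes Krt8, Krt18 and Krt19 had antisense means of 13.8, 13.7 and 13.5, against 13.8, 13.7 and 13.5 in scrambled arrays, and the hepatic transcription factor genes Hnf4a and Foxa2 10.7 and 10.3, against 10.7 and 10.3. Alb, at 4.70 in antisense and 4.73 in scrambled arrays, was near the filter level. The fetal liver gene Afp averaged 6.43 in antisense and 6.33 in scrambled arrays, the epithelial adhesion gene Epcam 6.33 and 6.34, and the transcription factor gene Onecut1 5.20 and 5.31. Of 11 tested identity genes none passed, and Sox9, a biliary progenitor factor gene, came closest at 0.17 (limma adjusted p = 0.0662, the 1 with an unadjusted p under 0.05). Of 12 macrophage and myeloid markers 9 were tested and 1 rose, the lysosomal gene Cd68, by 0.39 (limma adjusted p = 0.0176). Its adjusted p was 0.0523 without antisense replicate 3 and 0.0551 without antisense replicate 4. Ptprc, Adgre1 and Itgam lay below the filter. Cd14 (8.85 in antisense and 8.86 in scrambled arrays), Csf1r (6.47 and 6.41) and Cd74 (6.23 and 6.31) were brighter than Cd68 (5.86 and 5.47), and none of them passed. Spi1, Fcgr1, Cx3cr1, Lyz2 and Clec4f were tested, dimmer than Cd68, and did not pass. The summed linear level of the 12 macrophage and myeloid markers ranged from 803 to 908 in antisense and from 835 to 882 in scrambled arrays. Cd14, the brightest, made up the largest part of this sum, so the sum says little about the dimmer markers. None of 4 tested lymphocyte and mast cell markers, 5 stellate cell and fibroblast markers or 3 endothelial markers passed, and 0 of these had an unadjusted p under 0.05. Over all tested genes 1.53% passed with limma, 1.16% with a rise, and 12.9% had an unadjusted p under 0.05. Marker lists this short can hold no call at that share. The part of Cd68-expressing cells in the cytokine values was not tested.

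**Figure D5:**
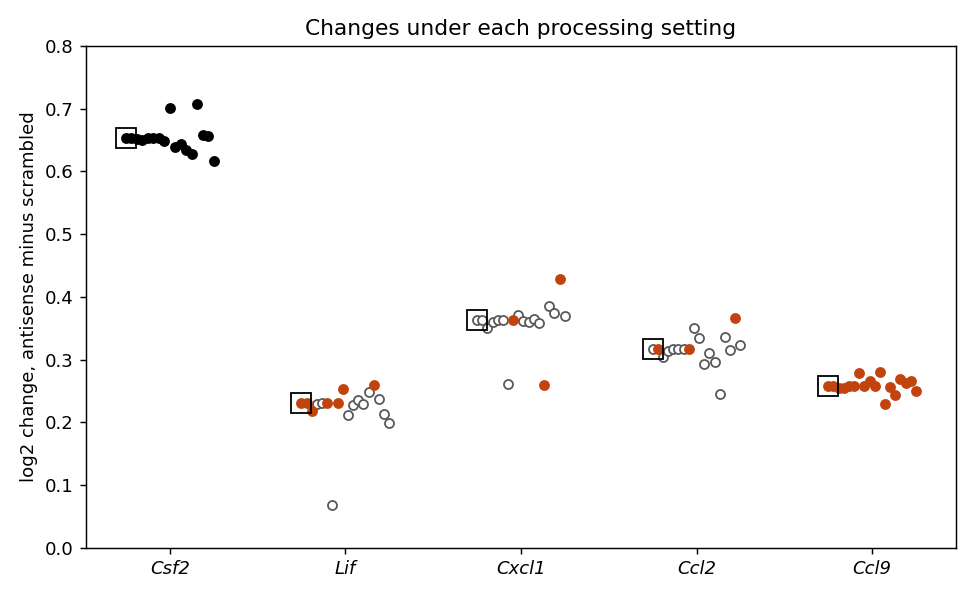
Log2 change (antisense minus scrambled, vertical axis) of Csf2, Lif, Cxcl1, Ccl2 and Ccl9 under the reported setting (boxed) and each alternative. Filled points passed limma's adjusted threshold of 0.05 and open points did not (black for Csf2, chosen for its change); Csf2 stays between 0.62 and 0.71, Ccl9 is filled throughout, and Lif, Cxcl1 and Ccl2 are mixed.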

How the data were processed

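The series holds 10 single-colour Affymetrix arrays, 5 per group, assigned from their titles. The deposited values are log2 expression, 1 per probe set and array. The scale was read from the values, which reach 14.18, above the 11.09 that a natural log of a 16-bit scanner ceiling allows. How the authors summarised, background-corrected and normalized the arrays is not given in the sources used here. No further normalization was applied to the deposited log2 values. The number of arrays limits the precision, and the table gives no detection calls.

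Of 45101 probe sets, 64 are controls, 34945 have 1 symbol, 932 have several and 9160 are not listed with a symbol. By gene identifier 34741 matched a current RefSeq symbol. For each of 18193 genes the brightest probe set with 1 symbol was kept, and 12633 passed the 40% filter. The comparison used limma's moderated test (version 3.58.1, R 4.3.3), two-sided, with Benjamini-Hochberg adjustment and without a block. The procedure was tested on simulated data. Plots were made in Python 3.11.15 (matplotlib 3.10.9).

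The 10 genes and the lists were chosen with earlier results of these data known. The rule named all 10 genes, every called gene of a list or its 3 with the smallest p, and the 5 genes most like Csf2. Other genes were named to give a role or a marker, after their values were seen.

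Both groups carry replicate numbers 1 to 5. After removal of the group means, arrays with the same number correlated at 0.172, 0.377, 0.112, 0.152 and 0.335, against -0.312 to 0.231 for all other pairs across groups. Pairs 2 and 5 lay above that range, while pairs 1, 3 and 4 lay inside it, so a pairing by number is uncertain. Any such pairing comes from the values and not from the labels. The reported fit therefore has no block, and the replicate block is given where it changes a call.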

Additional observations from a re-analysis of the deposited data

Results flagged for a closer look

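In Csf2, antisense replicate 2 lay far below the other 4 antisense arrays, by 0.801 of the group's whole range, where a gap above 0.710 would be seen by chance in about 1 of 20 groups of 5. Of 36 groups of 5 values examined, 1 was picked out in this way, against 1.8 expected by chance. The array read 5.82 and still lay above all scrambled arrays, of which the highest read 5.57. Without it the change of Csf2 was 0.70, against 0.65 with all arrays.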

How the results depend on the processing

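The number of genes called was 193. It was 385 with the replicate block, of which 184 were shared, and 314 with an intensity trend, and ranged from 92 to 201 with 1 array left out. It was lowest without antisense replicates 3 (95) and 4 (92), scrambled replicate 3 (101) and antisense replicate 5 (123). Of the 10 cytokine and chemokine genes 7 were tested and 2 called, Csf2 included, against 1.53% of all tested genes. Csf2 was chosen for its change, so its call, here and under the alternatives, is a description and not a result. With the replicate block 3 were called, with an intensity trend 4 (Cxcl1 and Ccl2 added), and with median centring, no filter, a 60% filter or the mean of probe sets 1 each, and with 1 array left out between 1 and 3. With Csf2 set aside, 1 was called (Lif), 2 with the replicate block, 3 with an intensity trend, 1 with a 60% filter, 0 with median centring, no filter or the mean of probe sets, and 0 to 2 with 1 array left out. The spread of Cxcl1 without scrambled replicate 1 was added after seeing the data. Under the 60% filter Csf2, Csf3 and Cxcl5 were not tested. The direction of Csf1, Csf2, Csf3, Lif, Cxcl1 and Ccl2 held under every alternative run. Cxcl5 ranged from -0.087 to 0.0082 with 1 array left out, and its sign turned without scrambled replicate 5 alone, to 0.0082. Lif missed the threshold in 11 of 17 alternatives. The cause of these differences was not tested. Low signal limits Il6, Il11 and Cxcl2, whose values lie where probe sets of expressed and unexpressed genes cannot be separated here. Csf2, Csf3 and Cxcl5 passed the filter, but this alone does not show expression. The lymphocyte genes Cd4 and Cd3e averaged 5.79 and 5.48 in antisense and 5.83 and 5.56 in scrambled arrays. These levels lie above both means of Csf3 and Cxcl5. They also exceed the scrambled mean of Csf2 (5.35), though not its antisense mean (6.01).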
